A study of Mus musculus with 4 samples.

Results

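Transcript levels of 8 genes that encode transcription factors of the hepatocyte were compared between livers of fasted mice and livers of mice that had been fed again after a fast. The genes were the forkhead factors Foxa1, Foxa2, Foxa3, Foxo1 and Foxo3, the cut homeobox factors Onecut1 (hepatocyte nuclear factor 6) and Onecut2, and the nuclear receptor Hnf4a. They were chosen by name, and every array probe that carries one of these names was taken, which gave 10 probes of the 39429 gene probes on the array: 2 each for Foxa2 and Foxo1 and 1 for every other gene. Of these, 9 probes of 7 genes were bright enough to be tested, among 19719 probes tested in all. Foxo3 was the gene that was not.

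All mice were male C57BL/6J, given as C57/Bl6 among the sample labels, and were 8 to 12 weeks old. They carried no transgene or deletion that the labels name. Fasted mice went without food for 24 h, and re-fed mice went without food for 24 h and then ate for 2 h, so that both groups had fasted and there was no group fed throughout. Whole livers of 4 mice per condition were used, 1 mouse per liver, which holds other cells besides hepatocytes. Each of 4 two-colour arrays carried RNA of 1 fasted and 1 re-fed liver, paired at random, and is called a replicate here. The fasted liver was labelled with the red dye Cy5 on replicates 1 and 2 and with the green dye Cy3 on replicates 3 and 4.

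FOXA proteins are pioneer factors: they bind sites in closed chromatin and open them for other factors, and they act in liver formation and at the enhancers of glucose, bile acid and lipid genes in the adult liver. FOXO proteins are forkhead factors under insulin control. Insulin signalling through AKT phosphorylates them and moves them out of the nucleus, and in fasting they act on gluconeogenic genes. ONECUT1, ONECUT2 and HNF4A belong with the FOXA factors to the set of regulators that hold hepatocyte identity and bind one another's genes, and HNF4A acts at genes of apolipoproteins, bile acid synthesis and clotting factors. Much of this control works on the proteins, which an RNA measurement does not see.

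The probes are what the array reads of these genes, and 2 of them are shown because results below turn on how they behave: the Onecut1 probe, which is dim, and the dimmer of 2 Foxo1 probes. Both lie on the plus strand of the mm9 build that the files use, at chr9:74710921-74710980 and chr3:52150183-52150242. Where in a transcript a probe lies is not given. All letters are in lower case because no part of a probe is singled out.
Onecut1 probe: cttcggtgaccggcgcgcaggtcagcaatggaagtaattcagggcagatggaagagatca
Foxo1 dimmer probe: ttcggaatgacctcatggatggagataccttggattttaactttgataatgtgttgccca

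The promoters of the genes were searched for short motifs, since the study asked which genes respond to fasting through the cyclic AMP response element (CRE) and through partner factors. The search covered the 250 bases before each RefSeq transcription start in the GRCm38.p6 build, on both strands, for 10 starts of 7 genes, with Onecut2 left out. The short form of the CRE, TGACG, was present at Onecut1 and Foxo3, and 17.8% of 32851 promoters of this length hold it. The full CRE, TGACGTCA, had no exact match at the 10 starts and has one at 1.55% of all promoters, where it also counts as the short form. With at most 1 mismatch, as the study defined it, it was at 2 of the 10 starts, those of Onecut1 and 1 of Foxa2, and is at 10.6% of all promoters. A forkhead motif, TGTTTAC, was present at Foxa1 and is at 3.17% of all promoters. A TATA box, TATAAA, was at 2 of the 10 starts, those of Foxa3 and 1 of Foxa2, and is at 12.4% of all promoters, and CCAAT was at 6 of the 10 and is at 33.8%. The windows of 30 bases around the CRE and forkhead matches follow, with the match in capitals, read on the strand of the gene, where all 3 matches lie in reverse. The Onecut1 window is at chr9:74861770-74861799 on the plus strand, the Foxa1 window at chr12:57546234-57546263 on the minus strand and the Foxo3 window at chr10:42276742-42276771 on the minus strand. A match is a description of letters and says nothing of binding.
Onecut1: tttgtgctgggaCGTCAcggagcgctggga
Foxa1: tatactgctttGTAAACAaagtgagggcca
Foxo3: gacccgccccgcCGTCAtcctaggttgagg

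Unless a level is named, each value that follows is a log2 ratio of fasted over re-fed liver, negative where the fasted liver held less. A probe was called when its adjusted p in limma, a linear model with a spread shared across all probes, was under 0.10 and its change was at least 1.5-fold. Levels are log2 brightness of each liver's channel, built from the normalized ratio and from the mean brightness of both channels, normalized between arrays. Brightness depends on the probe, so that levels are set side by side between conditions of 1 probe and never between genes. The median brightness of gene spots was 40 to 75 in red and 44 to 96 in green, over median local backgrounds of 25 to 35 and 20 to 33, and no spot was saturated. With 4 arrays, precision is limited by their number. Genes that define hepatocytes were present as the label liver requires: 7 of the 8 markers listed had a probe, and all 7 were well above background on all arrays.

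Expression of the group was on balance lower in fasted liver. Of the 9 tested probes, 5 were called lower, 1 each for Foxa1, Foxa2, Foxa3, Onecut1 and Onecut2, and Foxa2 lay on the limit itself. The count was 3 without replicate 1 or 4 and 1, that of Onecut1, without replicate 2 or 3. Over all tested probes the share called lower was 2.08%. None of the 9 was called higher in limma without a dye term, where the share of all probes was 1.70%. Of them, 2, both of Foxo1, had an unadjusted p under 0.05, as 21.6% of all tested probes did in either direction. Both were called higher with a dye term in limma, where the share was 1.93%, and when livers were compared without regard to their array. SAM, the test that the methods name, was rebuilt here on these ratios and called both. The probe of Hnf4a was close to 0, and the dimmer Foxa2 probe was negative and not called. The median of the 9 log2 ratios was -0.67, and that of all tested probes was -0.00099. On all 4 arrays 6 of the 9 had a negative ratio, against 16% of all tested probes, and 1 had a positive one. Both Foxa2 probes are among the 6 and both Foxo1 probes among the 9, so that these counts are of probes and not of genes.

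**Figure D1:**
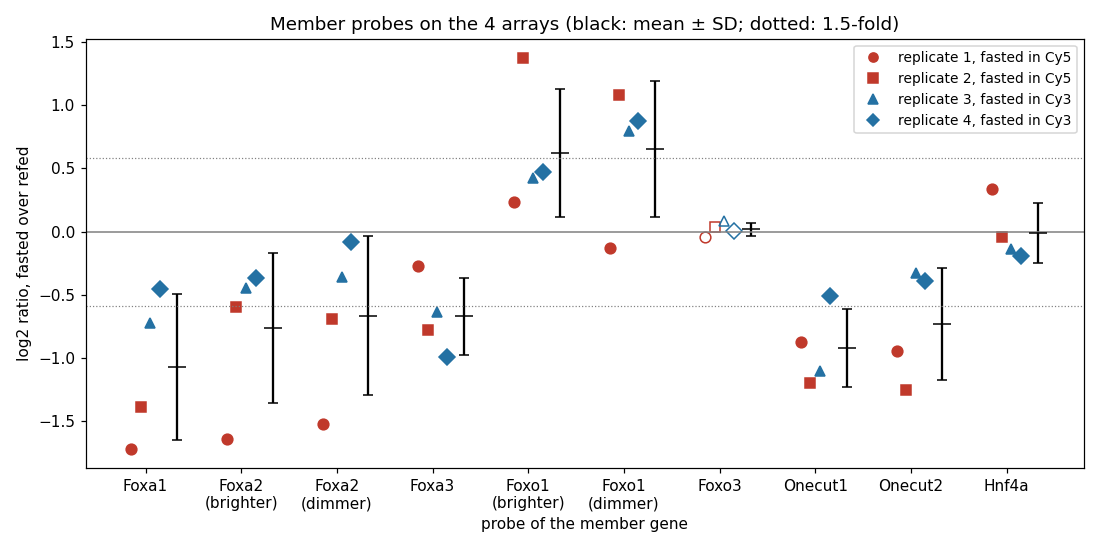
Log2 ratio of fasted over re-fed liver for each of the 10 member probes, with 1 point per array (n = 4) coloured by the dye of the fasted liver, the mean ± SD in black and open marks for Foxo3, which was not well above background. The probes of Foxa1, Foxa2, Foxa3, Onecut1 and Onecut2 lie below 0 on all 4 arrays, those of Foxo1 lie mostly above, and those of Hnf4a and Foxo3 lie around 0.

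Foxa1 had the largest fall among the called members as processed here. Its log2 ratios were -1.72, -1.39, -0.73 and -0.46 on replicates 1 to 4, with a mean of -1.07 ± 0.58 (SD, n = 4), a 2.10-fold lower level in fasted liver (limma adjusted p = 0.0409, 95% confidence interval -1.58 to -0.56). The level was 9.67, 9.41, 9.56 and 9.73 in the 4 fasted livers. It was 11.39, 10.79, 10.29 and 10.18 in the 4 re-fed livers. The groups did not overlap, and the re-fed livers were spread more widely (SD 0.55) than the fasted livers (SD 0.14). Re-fed levels were higher on replicates 1 and 2, with the re-fed liver in Cy3, than on replicates 3 and 4. Dye and liver cannot be told apart in that spread. The call was lost without replicate 2 (-0.97) or 3 (-1.19). The probe lies at chr12:58641764-58641823 on the minus strand in mm9.

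Foxa2, which acts at genes of fatty acid oxidation and ketone body formation, had 2 probes that overlap by 5 bases, at chr2:147868669-147868728 and chr2:147868614-147868673 on the minus strand. They are therefore nearly the same site read again and not independent measures. The brighter probe had log2 ratios of -1.64, -0.59, -0.45 and -0.37, with a mean of -0.76 ± 0.59 (SD, n = 4), or 1.70-fold lower in fasted liver (95% confidence interval -1.28 to -0.25). Its adjusted p in limma was 0.09999, so that the call was lost, at 0.1003, when any spot of a multi-spot probe, rather than most of them, had to exceed background. The level was 10.35 to 10.63 in fasted livers and 10.89 to 11.99 in re-fed livers, with no overlap. Replicate 1 held the largest fall, and without it the mean was -0.47. The dimmer probe had log2 ratios of -1.52, -0.69, -0.36 and -0.08, with a mean of -0.66 ± 0.63 (SD, n = 4), and was not called (limma adjusted p = 0.153). Without replicate 1 the mean of the dimmer probe was -0.38. Both probes ordered the 4 arrays the same way, and they differed by at most 0.29 on any array.

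Foxa3, a FOXA gene active in adult hepatocytes, had log2 ratios of -0.27, -0.77, -0.64 and -0.99. The mean was -0.67 ± 0.30 (SD, n = 4), a 1.59-fold lower level in fasted liver (limma adjusted p = 0.035, 95% confidence interval -0.97 to -0.37). Levels were 9.90, 9.86, 9.23 and 9.18 in fasted livers and 10.17, 10.64, 9.87 and 10.17 in re-fed livers. The ranges overlapped across arrays, although the fasted liver was the lower one on each array. When the livers were compared without regard to their array, the adjusted p was 0.102, and the call was also lost without replicate 2, 3 or 4. The probe lies at chr7:19599053-19599112 on the minus strand.

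Onecut1, a factor that acts with FOXA2 at liver genes, had the lowest adjusted p of the members in the fit without a dye term; with that term Foxa1 and Onecut2 had lower ones. Its log2 ratios were -0.87, -1.20, -1.11 and -0.51, with a mean of -0.92 ± 0.31 (SD, n = 4), or 1.89-fold lower in fasted liver (limma adjusted p = 0.0161, 95% confidence interval -1.22 to -0.62). The level was 6.67, 6.49, 6.58 and 6.46 in fasted livers. It was 7.54, 7.69, 7.68 and 6.97 in re-fed livers. All 4 fasted livers were thus below all 4 re-fed livers, and the call held without each of the 4 replicates in turn, at limma adjusted p between 0.0183 and 0.0798.

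The size of the Onecut1 fall depended on how background was handled. The probe printed above is dim: its median signals ran from 42 to 184, while median backgrounds were 20 to 35. It was flagged as well above background on all 4 arrays in both conditions. The offset of 50 that is added to every signal pulls ratios of dim probes toward 0. The mean was -1.24 with no background correction, -1.31 in the deposited ratios, -1.70 after plain subtraction and -2.29 in the processed signals of the scanner software. Onecut1 was called lower in each of these. It was -0.53 and not called (limma adjusted p = 0.559) when normexp was fitted on all spots, with none left out for its local background. Foxa3, with median signals of 548.5 to 1516, moved from -0.67 to -0.32 in that setting. The part of dimness in these changes was not tested.

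Onecut2, a paralog of Onecut1, was bright, with median signals of 1567 to 5919.5. Its log2 ratios were -0.95, -1.25, -0.33 and -0.39, with a mean of -0.73 ± 0.44 (SD, n = 4), or 1.66-fold lower in fasted liver (limma adjusted p = 0.0601, 95% confidence interval -1.13 to -0.33). The call was lost without replicate 1, 2 or 3. Levels were 11.26 to 11.46 in fasted livers. They were 12.33, 12.61, 11.79 and 11.66 in re-fed livers, so that the groups did not overlap. As with Foxa1, Foxa2 and Onecut1, the re-fed livers were the more widely spread (SD 0.45 against 0.080). Foxa3 (0.32 against 0.39) and the brighter Foxo1 probe (0.19 against 0.37) went the other way, and the re-fed SD was the larger one in 55.3% of all tested probes. Over all tested probes the median SD was 0.149 in re-fed and 0.135 in fasted livers, and the difference in spread was not tested. For Onecut2, as for Foxa1, re-fed levels were higher on replicates 1 and 2 than on 3 and 4. Dye and liver cannot be told apart there.

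**Figure D2:**
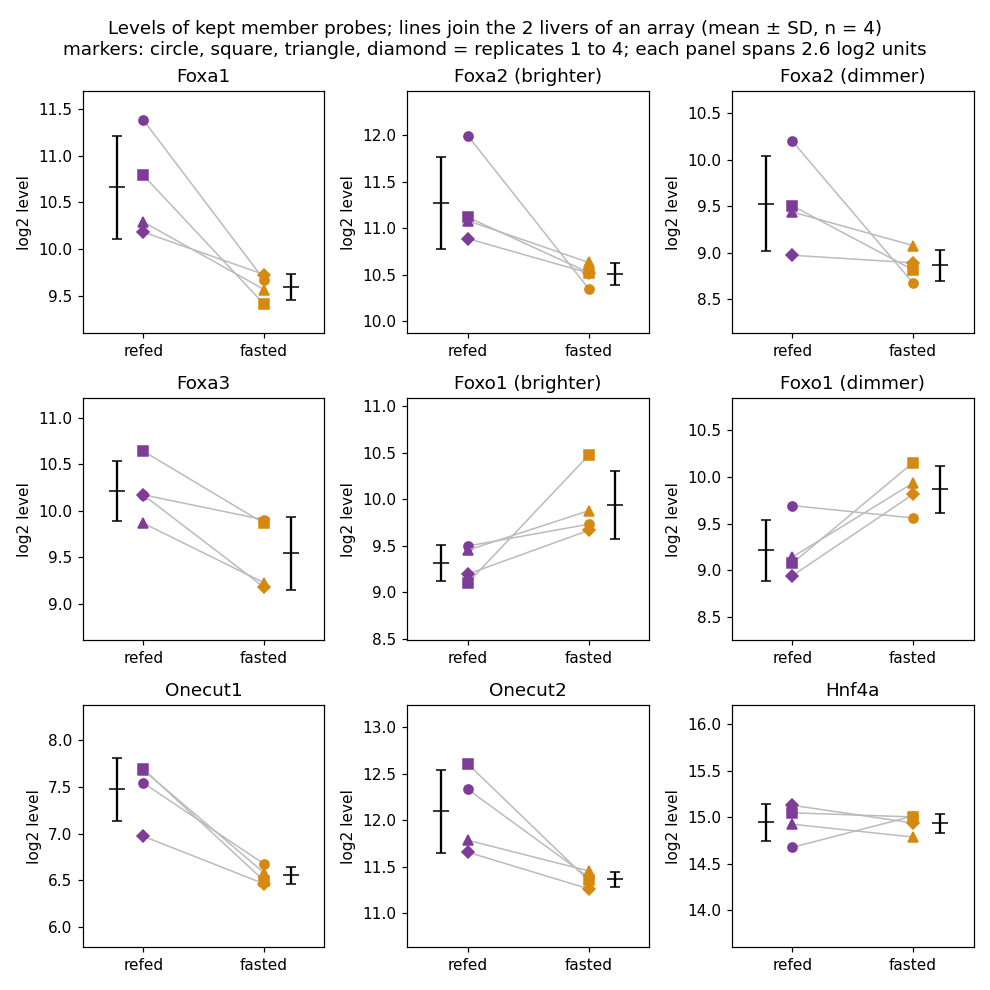
Normalized log2 brightness of the 9 tested member probes in the 4 re-fed (purple) and 4 fasted (orange) livers, with lines that join livers of 1 array and bars for mean ± SD. Fasted levels of Foxa1, the brighter Foxa2 probe, Onecut1 and Onecut2 lie below all re-fed levels, those of Foxa3 overlap them, and those of the brighter Foxo1 probe lie above them.

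Across the 9 tested probes, the 4 fasted levels were all below the 4 re-fed levels for 4 probes and all above them for 1. Over all tested probes the shares were 7.82% and 5.85%. The probes with all fasted levels below were those of Foxa1, Onecut1 and Onecut2 and the brighter of Foxa2, and the probe with all above was the brighter of Foxo1.

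Foxo1, the main FOXO factor of liver, ran the other way. The brighter probe, at chr3:52153289-52153348 on the plus strand, had log2 ratios of 0.23, 1.37, 0.42 and 0.47, with a mean of 0.62 ± 0.51 (SD, n = 4), or 1.54-fold higher in fasted liver. It was not called (limma adjusted p = 0.115, 95% confidence interval 0.17 to 1.08). With a dye term (limma adjusted p = 0.0588), without regard to the array (limma adjusted p = 0.0724) and with the rebuilt SAM it was called higher. The level was 9.73, 10.47, 9.88 and 9.66 in fasted livers and 9.50, 9.10, 9.45 and 9.20 in re-fed livers. The fasted livers were all above the re-fed livers, and replicate 2 stood highest. The dimmer probe printed above lies 3046 bases away from the brighter one and gave -0.13, 1.08, 0.80 and 0.87, with a mean of 0.65 ± 0.54 (SD, n = 4, limma adjusted p = 0.117). The probes had nearly the same mean but differed by up to 0.41 on single arrays, and replicate 1 was negative with the dimmer one. Without replicate 1 the dimmer probe was called higher, at 0.92 (limma adjusted p = 0.0147), and without replicate 2 the brighter probe had a mean of 0.38 and the dimmer one of 0.51.

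Foxo3, the other FOXO gene of the group, was not well above background on any array in either condition, with median signals of 31 to 86.5. Its measured log2 ratios of -0.04, 0.03, 0.08 and 0.0042 are ratios of background-level signals and set no bound on a change.

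Hnf4a, the nuclear receptor, had log2 ratios of 0.34, -0.04, -0.14 and -0.19. The mean was -0.0090 ± 0.24 (SD, n = 4, limma adjusted p = 0.976), and the 95% confidence interval of -0.26 to 0.25 excludes a change of 1.5-fold in either direction for this probe. Its median signals were 19887.5 to 49977.5, and the spot was not saturated. The probe, at chr2:163398548-163398607 on the plus strand, is a single one, and the files do not say whether it reads transcripts of both Hnf4a promoters.

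Several of these ratios differed in size between the dye orientations. Each mean weighs both orientations alike and did not change with a dye term in the model. Foxa1 averaged -1.55 on the 2 arrays with the fasted liver in Cy5 and -0.59 on the 2 with it in Cy3. Onecut2 averaged -1.10 and -0.36, and the brighter Foxa2 probe -1.12 and -0.41. For Foxa1 and Onecut2 the dye effect itself passed the same limit on the adjusted p in limma (0.0406 and 0.0482), as it did for 14.8% of all tested probes, and for Foxa2 it did not (0.220). The sign was negative in both orientations for all these genes. Each orientation holds only 2 pairs of livers.

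With the dye as a term in the model, 6 member probes were called lower and 2 higher, against shares of 2.26% and 1.93% of all tested probes. The added probes were the dimmer Foxa2 probe (limma adjusted p = 0.0257) and both Foxo1 probes (0.0588 for the brighter and 0.0610 for the dimmer). The fit with the dye term gave an adjusted p of 0.00175 for Foxa1, 0.0267 for the brighter Foxa2 probe, 0.0114 for Foxa3, 0.00572 for Onecut1 and 0.00325 for Onecut2.

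Replicate 3 stood apart in transcripts of another organ. Pancreatic acinar markers (digestive enzymes such as Clps, Cpa1 and Pnlip) summed to a brightness of 1059 to 1963 in fasted livers and of 1036 to 31922 in re-fed livers, where the highest value was that of replicate 3. Of the 12 markers, 1, the transcription factor Ptf1a, was not well above background on any array. The log2 ratio of the sum was -4.02 on replicate 3, while the others lay between -0.09 and 0.03. Islet markers had a ratio of -1.67 on replicate 3. Foxa2, Foxa3, Onecut1 and Hnf4a are among the members that are also genes of the pancreas. The part of pancreatic transcripts in the values of any member was not tested. Without replicate 3 the means were at least as large for Foxa1 (-1.19, limma adjusted p = 0.103), Foxa2 (-0.87, 0.191), Foxa3 (-0.68, 0.127) and Onecut2 (-0.86, 0.102). Onecut1 was -0.86 and was still called (0.0798).

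Markers of blood and Kupffer cells differed between pairs of arrays. Blood markers (Hbb-b1, Hba-a1 and Alas2) had summed levels of 25713 to 122070 in fasted and 15142 to 34756 in re-fed livers, with log2 ratios of 2.31 and 2.39 on replicates 1 and 3 and -0.27 and 0.28 on replicates 2 and 4. Kupffer cell markers were 0.55 and 0.61 on replicates 1 and 3 and -0.21 on each of the others. The 7 hepatocyte markers summed to 255828 to 307173 in fasted and 214985 to 268778 in re-fed livers, with log2 ratios of 0.26, 0.51, -0.06 and -0.06. Cholangiocyte markers, whose cells express Onecut1 as well, had ratios of 0.01, -0.19, -0.37 and 0.54, and 3 of 6 (Krt7, Epcam and Cftr) were not well above background on any array. The part of these cell types in the results was not tested, and in bulk tissue fewer cells of a type and less RNA per cell cannot be told apart.

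No other forkhead gene named in the form Fox, a letter from a to s and a number was called in either direction as processed here. Names of another form were not looked up. Besides the members the array held 38 genes of this form, of which 11 were tested. Limma called none, with 4 at an unadjusted p under 0.05, against 21.6% of all tested probes, and SAM called none. In 7 of 20 alternatives 1 or 2 of them were called lower, among them the deposited ratios (1), the processed signals (2) and the fit without replicate 2 (1). Their median log2 ratio was 0.07, against -0.00099 for all tested probes. Foxk2, singled out after its values were seen, had the steadiest decrease, with log2 ratios of -0.55, -0.46, -0.54 and -0.68, and its mean of -0.56 (limma adjusted p = 0.0155) missed the 1.5-fold limit.

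Among 20 other transcription factors of the hepatocyte, 18 were tested, 2 were called higher and none lower (1.70% and 2.08% over all tested probes), and 8 had an unadjusted p under 0.05, a limit that 21.6% of all tested probes passed. With median centring 1 was called lower, and with no fold limit 2 were. Their median was -0.0068. Cebpb, a leucine zipper factor of the fasting and acute phase response, rose on every array (0.86, 1.91, 1.40 and 1.42), with a mean of 1.40 ± 0.43 (SD, n = 4, limma adjusted p = 0.0116). Nr1i2, the pregnane X receptor, rose by 0.75 ± 0.41 (SD, n = 4, limma adjusted p = 0.0478), with 0.30 and 0.49 on the arrays with the fasted liver in Cy5 and 1.13 and 1.07 on the others. Its call was lost without replicate 2, 3 or 4, at adjusted p between 0.111 and 0.165 in limma. Cebpa and Gata4, singled out after their values were seen, had means of -0.47 and -0.28 with adjusted p of 0.0788 and 0.0694 in limma, and neither reached 1.5-fold.

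Of 22 genes that act on FOXO proteins, 20 were tested, 2 were called higher and none lower (1.70% and 2.08% over all tested probes), 7 had an unadjusted p under 0.05 (21.6% over all tested probes), and the median was -0.02. In 7 of 20 alternatives 1 or 2 of them were called lower, among them the deposited ratios (1), the processed signals (2) and the fit without replicate 2 (1). Ppargc1a, a coactivator of FOXO1 and HNF4A in gluconeogenesis, rose on every array (0.97, 1.33, 1.25 and 1.25). Its mean was 1.20 ± 0.16 (SD, n = 4, limma adjusted p = 0.00338), while its dimmer probe had a mean of 0.45 and was not called. Sgk1, a kinase that phosphorylates FOXO proteins, rose by 0.90 ± 0.64 (SD, n = 4, limma adjusted p = 0.0782), with 1.58 and 1.27 on the arrays with the fasted liver in Cy5 and 0.60 and 0.16 on the others. It was no longer called without replicate 1, 2 or 3, at adjusted p between 0.150 and 0.224 in limma.

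Of 20 FOXO target genes, all of them tested, 8 were called higher and 1 lower, and the median was 0.31, while 1.70% of all tested probes were called higher and 2.08% lower. The largest rises were those of Igfbp1, which binds insulin-like growth factors, at 5.55 ± 1.18, of G6pc, the last enzyme of glucose release, at 3.60 ± 0.37, and of Pck1, a rate-setting enzyme of gluconeogenesis, at 2.66 ± 0.71 (SD, n = 4 each, limma adjusted p = 0.00372, 0.0017 and 0.00621). Gadd45a, a stress gene, fell on every array (-0.69, -1.26, -0.98 and -1.12), with a mean of -1.02 ± 0.24 (SD, n = 4, limma adjusted p = 0.00882). Its probe is dim and was well above background in 3 of 4 fasted and all 4 re-fed livers. The other 11 did not pass.

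Of 15 genes bound or controlled by FOXA2 and ONECUT1 in liver, 6 were called higher and 1 lower, with a median of 0.34, where 1.70% and 2.08% of all tested probes were called. The same Igfbp1, G6pc and Pck1 led the rises. Of 23 HNF4A target genes, 2 were called higher and none lower in limma or SAM (1.70% and 2.08% over all tested probes in limma), 6 had an unadjusted p under 0.05 (21.6% over all tested probes), and the median was 0.15. These were Cyp8b1, an enzyme of bile acid synthesis, at 1.11 ± 0.25 (SD, n = 4, limma adjusted p = 0.00677), and Nr1i2, which is given above with the replicates on which its call rests. The lists share genes and are described by their counts alone.

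**Figure D3:**
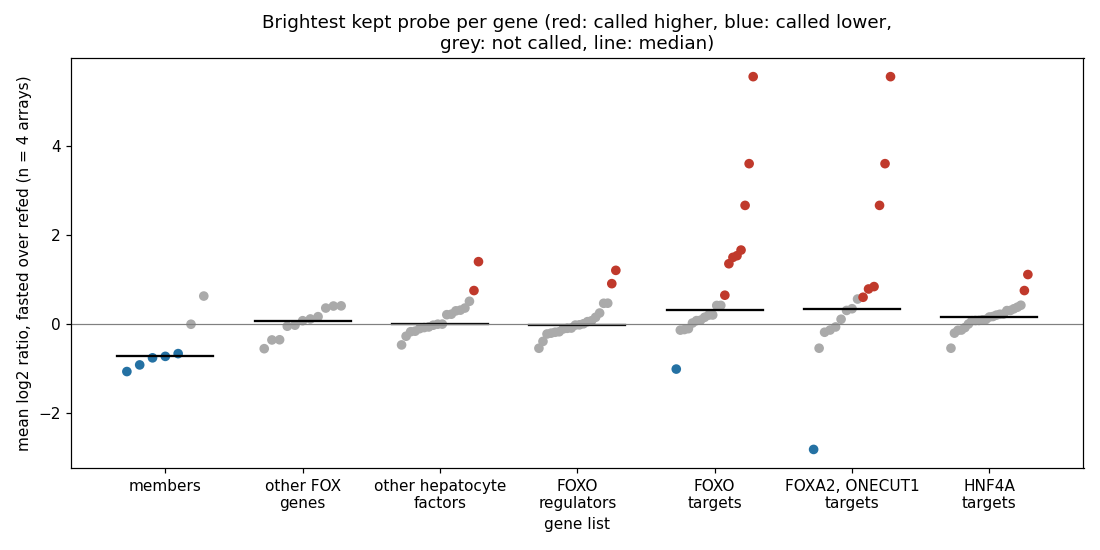
Mean log2 ratio of fasted over re-fed liver for the 7 tested members and the tested genes of 6 gene lists, with 1 point per gene by its brightest tested probe, called genes in red (higher) or blue (lower) and a line at each median. The member genes lie mainly below 0, while called genes of the FOXO target list lie mainly above 0, up to 5.55 for Igfbp1.

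For each called member, the 5 genes nearest to it were sought by the mean absolute difference of the 4 log2 ratios. Nearest to Onecut1 were Tuft1 (difference 0.0837), Dnajc3 (0.114), Inhba, a probe named ENSMUST00000099155 and Lss, all called lower. Nearest to Onecut2 were Ppp1r14b (0.0373), Txndc5, Tubb5, LOC100046749 and Cyp4f14. Foxa3 was nearest to Slc5a3 (0.058), Tubd1, Wars, Nav2 and Nop2. Foxa1 and Foxa2 shared 1 of their 5 nearest genes, F830014O18Rik, at differences of 0.187 and 0.123. The other genes were LOC100048053, Keg1, Id3 and Clec2h for Foxa1 and Bhlhe40, Hpgd, EG634650 and Cyb5b for Foxa2. The measure rests on 4 arrays, and it finds arrays that move alike whatever moved them.

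**Figure D4:**
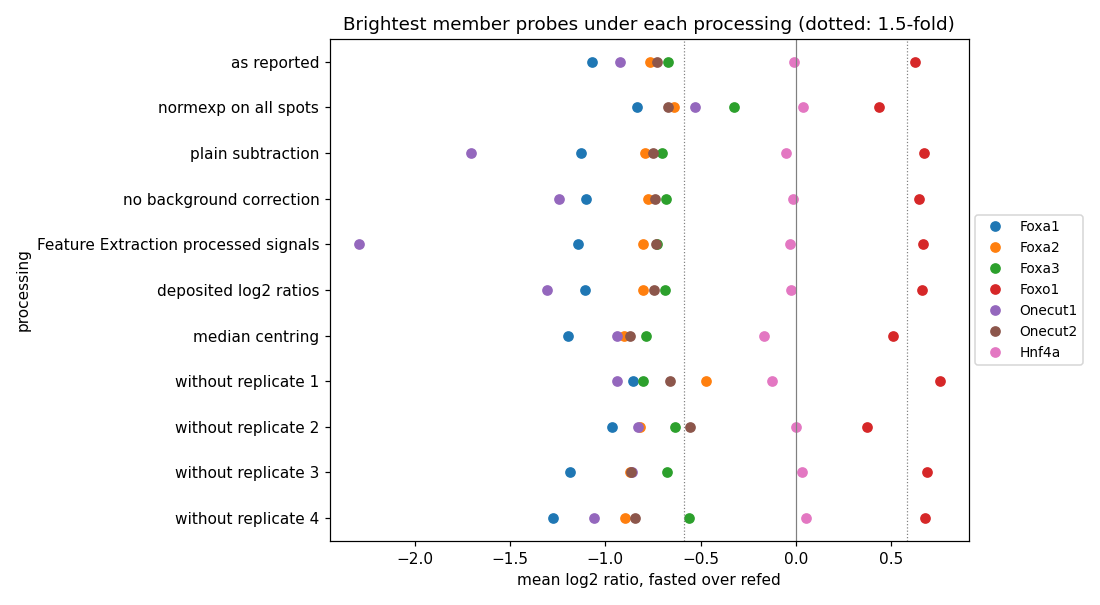
Mean log2 ratio of each member's brightest probe as reported and under the alternatives that changed any mean by over 0.005, including each replicate left out, with dotted lines at 1.5-fold. Onecut1 moves most, between -0.53 and -2.29, and the 5 members that fell stay below 0 in all settings.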

How the data were processed

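RNA of 4 fasted and 4 re-fed livers was measured on 4 two-colour Agilent arrays of 1 slide and 1 scan. The deposited scanner files hold raw intensity per spot and local background, and processed intensity from Feature Extraction. The authors also deposited log2 ratios, normalized by loess in limma with the background step not stated. Their rows were matched by row number, they run as fasted over re-fed, and they served as an alternative. With the ratios computed here r was 0.531 on replicate 1 and 0.922 to 0.957 on the others. The submitters' processing notes name limma.

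Median signals were read in R 4.3.3 with limma 3.58.1. Of 177588 spots, 55 with a local background over 3 times the array median were left out. Normexp with an offset of 50 and loess within arrays (span 0.3) followed. Control spots and flagged outliers (197 to 322 gene spots per array) were left out and spots of a probe averaged. A probe was kept when well above background, by most of its spots, on all 4 arrays in at least 1 condition. Ratios were turned to fasted over re-fed and tested, two-sided, with lmFit and eBayes and Benjamini-Hochberg adjustment over 19719 probes. Levels came from the same ratios after quantile normalization of mean brightness.

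The members, gene lists, markers and the background limit were chosen with earlier results of these data known. Named are all members, up to 3 called genes with the largest rise and 3 with the largest fall per list, by the brightest tested probe, and the 5 genes nearest to each called member. A gene selected by this rule is not reported here. Levels of a gene with more than 1 probe were not averaged. Steps were tested on simulated data. Alternatives covered background, source of values, normalization, filters, flags, dye, pairing, SAM rebuilt with all 16 sign flips, thresholds and each replicate left out. Rules that asked any or every spot of a probe to exceed background were added after seeing the data. Promoter sequences are from RefSeq (GRCm38.p6), probe sequences and coordinates from the files (mm9). Protein sequences were not used here.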

Additional observations from a re-analysis of the deposited data

Results flagged for a closer look

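Among the 4 arrays, 2 of 23 sets of values examined, which were the member probes and the means of the gene and marker lists, had a sample far from the others; chance gives about 1 in 20. The mean log2 ratio of the tested pancreatic acinar markers was -3.93 on replicate 3, against 0.04, -0.06 and 0.03 on replicates 1, 2 and 4. The mean of the endothelial markers was -0.161 on replicate 3, against 0.31, 0.26 and 0.29 on the others, and of its 4 genes Lyve1 was the one that was negative there, at -1.26.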

How the results depend on the processing

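Under 20 alternatives, Foxa1, Foxa2, Foxa3, Onecut1 and Onecut2 kept a negative and Foxo1 a positive mean. Fitting normexp on all spots, with none left out for its local background, left 5 probes of the array called higher and 15 lower, and 0 members lower. Means were then -0.83 (Foxa1), -0.64 (Foxa2), -0.32 (Foxa3), -0.53 (Onecut1), -0.67 (Onecut2) and 0.040 (Hnf4a). They were 0.43 for the brighter and 0.30 for the dimmer Foxo1 probe. Over all probes, calls higher and lower were 549 and 713 with subtraction, 603 and 997 with processed signals and 935 and 1208 with no fold limit, against 335 and 410 as reported. Median centring called 635 lower and moved the median of all probes to -0.058 and the share of calls that were higher from 45% to 26.6%. Member probes called higher numbered 1 in the deposited ratios and 2 with the dye term, with separate channels and with SAM, where Foxo1 (0.62) was called. At an adjusted p under 0.05, 3 members were lower, and Foxa2 (-0.76) and Onecut2 (-0.73) were lost. Foxa2 was also not called with processed signals (-0.80, adjusted p = 0.163), with no filter (-0.76, 0.157), with outlier spots kept (-0.76, 0.1003) and with any spot above background (-0.76, 0.1003). Separate channels with no replicate block, in which the pairing of livers on an array was ignored, gave 4 members lower and lost Foxa3 (-0.67, 0.102).

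Leaving out each replicate gave 1 to 3 members lower (3 without replicate 1 or 4, 1 without 2 or 3) and 0 to 1 higher (1 without replicate 1). All-probe calls ran from 209 higher and 257 lower without replicate 3 to 414 and 525 without replicate 1. Means ranged from -1.28 to -0.86 for Foxa1, -0.80 to -0.56 for Foxa3 and -0.86 to -0.56 for Onecut2. For Foxa2 they ranged from -0.89 to -0.47 for the brighter and from -0.86 to -0.38 for the dimmer probe. For Foxo1 they ranged from 0.38 to 0.75 for the brighter and from 0.51 to 0.92 for the dimmer probe. The range was -0.12 to 0.052 for Hnf4a, which was 0.0028, 0.034 and 0.052 without replicates 2, 3 and 4. Calls were lost for Foxa1 without replicate 2 or 3, Foxa2 without any one, Foxa3 without 2, 3 or 4, and Onecut2 without 1, 2 or 3. Beyond fewer arrays tested, the cause was not tested.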
